A study of Mus musculus with 3 samples.

Results

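Megakaryocyte progenitors low in Klf1 were 458 of the 17122 cells kept from 2 single-cell RNA libraries of sorted mouse bone marrow, 123 in the non_mCherry library and 335 in the control library. A cell was a member if it held at least 3 UMIs (unique molecular identifiers, each standing for 1 captured RNA molecule) of Pf4, at most 1 UMI of Klf1, and at least 1 UMI of 3 or more of the 7 platelet genes Gp1bb, Gp9, Itga2b, Vwf, Treml1, Rab27b and Sdpr. Kept cells had at least 1000 genes, at least 2000 UMIs and under 10% mitochondrial UMIs, which left 27541 cells in the whole series of 3 libraries. The members were chosen by their measured UMIs of these 9 genes, so their levels against other cells are a description and carry no test.

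Megakaryocytes are the bone marrow cells that shed platelets, and their progenitors come both from progenitors shared with the red cell lineage and, more directly, from stem cells biased towards platelet production. The lineage is driven by the hormone thrombopoietin and by the transcription factors Gata1, Zfpm1, Fli1, Gfi1b and Runx1, while Klf1 drives the red cell lineage. Progenitors already transcribe genes of platelet granules, adhesion receptors and signalling before the large, polyploid megakaryocyte forms.

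The study concerned fatty acid metabolism in blood progenitors with the fusion of Runx1 and Runx1t1 (AML1-ETO). The non_mCherry and mCherry libraries were 2 sorted fractions of 1 C57BL/6 mouse with Mx1-Cre, an interferon-inducible Cre active in many blood and other cells, and a heterozygous conditional Runx1-Runx1t1 knock-in with an mCherry reporter downstream. Cre was induced in that mouse with poly(I:C), and the non_mCherry fraction, which lacked the reporter, held the cells described as not having responded to it. The control library was 1 wild-type C57BL/6 mouse, and the labels do not say whether it received poly(I:C). Every fraction was sorted as living (DAPI-), lineage-negative and c-kit-positive, so mature megakaryocytes and platelets were outside the gate, and the non_mCherry gate held only part of the c-kit-positive cells of its mouse. With 1 library and 1 mouse per group there was no replicate, so no difference has a p-value, and every interval is an exact 95% interval for counting error only (Clopper-Pearson for shares, Poisson for CPM, the UMIs of a gene scaled to the same total in every set of cells). The fusion, poly(I:C), the sort gate and the mouse cannot be told apart as sources of any difference between the libraries.

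Members held 1403063 UMIs in non_mCherry and 4622280 in control. The median member had 10214 UMIs and 2988 genes in non_mCherry, against 9329 UMIs and 2754 genes in its other cells. In control it had 13248 UMIs and 3549 genes, against 15817 UMIs and 3738 genes in other cells. Members were thus a little deeper than other cells in one library and shallower in the other. A Scrublet doublet score of at least 0.25 was reached by 3 members (2.44%) in non_mCherry and 12 members (3.58%) in control, and these were kept. No member barcode was shared between the libraries, which had 24 barcodes in common.

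Regulatory sequence upstream of the defining genes is shown because GATA and ETS factors, the families of Gata1 and Fli1, are known to act at platelet gene promoters. Each run is the 250 bases before the transcription start, on the gene's own strand, from RefSeq on build GRCm38.p6, the build of the authors' mm10 counts. The search looked on both strands for AGATAA, as a core that GATA factors bind, and for AGGAAG, as a core that ETS factors bind. Other forms of these cores were not searched for, so 0 matches does not mean that a window lacks sites. Capitals mark each match, which on the reverse strand appears as its reverse complement. The windows are Pf4, plus strand, chr5:90772185-90772434, then Gp9, plus strand, chr6:87777820-87778069, and Itga2b, minus strand, chr11:102469884-102470133. They are followed by 2 genes that the rule did not use, F2rl2, plus strand, chr13:95696670-95696919, and Gp5, minus strand, chr16:30310782-30311031.
Pf4: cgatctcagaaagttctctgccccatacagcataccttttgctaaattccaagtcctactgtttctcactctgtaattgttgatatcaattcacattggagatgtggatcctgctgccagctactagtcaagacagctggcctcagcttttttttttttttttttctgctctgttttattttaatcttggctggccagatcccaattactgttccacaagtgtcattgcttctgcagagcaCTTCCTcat
Gp9: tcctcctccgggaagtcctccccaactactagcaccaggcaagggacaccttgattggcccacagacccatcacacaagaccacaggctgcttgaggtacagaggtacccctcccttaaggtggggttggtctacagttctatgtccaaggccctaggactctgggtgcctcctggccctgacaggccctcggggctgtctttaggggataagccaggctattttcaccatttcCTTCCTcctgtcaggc
Itga2b: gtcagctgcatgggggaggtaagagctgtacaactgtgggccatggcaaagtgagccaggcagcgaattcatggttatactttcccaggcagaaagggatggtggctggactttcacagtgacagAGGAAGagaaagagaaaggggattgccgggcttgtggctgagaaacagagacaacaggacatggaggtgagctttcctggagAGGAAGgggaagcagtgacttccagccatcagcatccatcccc
F2rl2: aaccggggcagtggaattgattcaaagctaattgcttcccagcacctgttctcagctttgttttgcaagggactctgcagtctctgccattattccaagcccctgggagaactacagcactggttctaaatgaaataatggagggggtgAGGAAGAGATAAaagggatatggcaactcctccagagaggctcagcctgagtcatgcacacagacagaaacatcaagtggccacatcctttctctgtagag
Gp5: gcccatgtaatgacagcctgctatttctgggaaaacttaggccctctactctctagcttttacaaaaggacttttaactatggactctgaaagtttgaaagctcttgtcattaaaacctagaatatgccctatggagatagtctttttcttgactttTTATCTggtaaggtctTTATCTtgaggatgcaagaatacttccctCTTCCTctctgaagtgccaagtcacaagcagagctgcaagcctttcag
Pf4 and Gp9 each had 1 ETS match, 9 and 16 bases before the start, and Itga2b had 2, at 125 and 43 bases. F2rl2 had an ETS match at 101 bases directly followed by a GATA match at 95 bases, with no base between or shared. Gp5 had GATA matches at 93 and 77 bases and an ETS match at 48 bases. Of the 8 platelet genes in the rule, 5 had a promoter entry, and of these 3 held the ETS motif and 0 the GATA motif. The Gp1bb window had 0 matches of either motif and is not printed. Among 27025 promoters of the same length, 29.2% held the ETS motif, 10.3% the GATA motif and 2.96% both. Of the 20 genes highest in members relative to other cells, most of them named further on, 14 had an entry, and 8 held the ETS motif, 2 the GATA motif and 2 both. The 2 with both motifs were F2rl2 and Gp5, so the printed windows are not typical of the 14. A match describes letters only and is not a binding site. The Itga2b and F2rl2 windows lie partly inside the longer gene bounds of the GENCODE annotation.

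Members were 1.53% (1.27 to 1.82) of 8056 kept cells in non_mCherry and 3.70% (3.32 to 4.10) of 9066 in control, a ratio of 0.413. In the mCherry library 1 cell of 10419 met the same rule, a share of 0.00960% (0.000243 to 0.0535). Cells with at least 3 UMIs over 7 B lineage genes (Cd79a, Cd79b, Vpreb1, Vpreb2, Vpreb3, Igll1 and Ebf1) were 38.3% of non_mCherry and 5.46% of control, and without them the shares of members were 2.21% and 3.84%, with a ratio of 0.577. With each cell thinned to 5000 UMIs and the rule applied to the thinned counts, the shares were 1.34% and 2.52%, with a ratio of 0.531. The share was lower in non_mCherry in each of these counts, by an amount that moved with the denominator and the depth.

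The thresholds fell on unequal numbers of cells. At least 3 Pf4 UMIs were found in 144 cells in non_mCherry and 414 in control, of which 16 and 71 had too few of the other platelet genes. The limit on Klf1 then removed 5 cells in non_mCherry and 8 in control. Klf1, the red cell factor, was at 0 UMIs in 111 non_mCherry and 308 control members and at 1 UMI in the remaining 12 and 27. Just inside the Pf4 limit stood 7 non_mCherry and 23 control members with exactly 3 Pf4 UMIs, and just outside it 16 and 34 cells with 2 UMIs that met the rest of the rule. Cd9, a tetraspanin of platelets that the rule did not use, was at 314 and 267 CPM in the cells with 3 Pf4 UMIs and at 171 and 183 CPM in the cells with 2. Other genes outside the rule did not all show this step. Rgs18 was at 163 and 248 CPM in the cells with 3 Pf4 UMIs and at 171 and 253 CPM in those with 2. Gp5 was at 100.6 and 101.6 CPM with 3 and at 101.8 and 71.8 CPM with 2.

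Pf4 encodes platelet factor 4, a chemokine stored in alpha granules. Its lowest, median and highest counts per member were 3, 17 and 151 UMIs in non_mCherry and 3, 25 and 599 UMIs in control. Itga2b, the integrin alpha chain of the fibrinogen receptor (CD41), had 0, 3 and 12 UMIs in non_mCherry members and 0, 4 and 18 in control members. Members with all 7 platelet genes numbered 23 of 123 in non_mCherry and 63 of 335 in control, and members with only 3 of the 7 numbered 20 and 36. The spread of Pf4 within each library was far wider than the distance between the library medians.

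**Figure D1:**
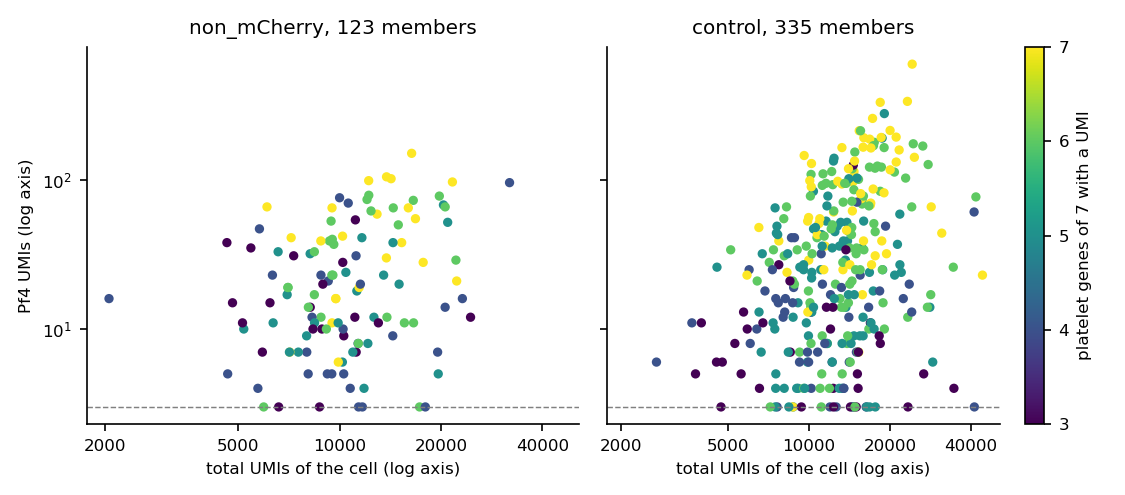
Pf4 UMIs (log axis) against total UMIs (log axis) for each of the 123 non_mCherry members (left) and 335 control members (right), coloured by how many of 7 platelet genes had a UMI. The dashed line is the rule's limit of 3 Pf4 UMIs, and Pf4 reaches 151 UMIs in non_mCherry and 599 in control.

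The genes of the rule stood far apart from other cells, as their selection fixed. Pf4 was at 2500.2 CPM in members and 6.31 CPM in other cells of non_mCherry, and at 3478 and 9.67 CPM in control. Gp1bb, the beta chain of the von Willebrand factor receptor, was at 249 and 4.95 CPM in non_mCherry and 213 and 3.06 CPM in control. Vwf, the adhesive protein of platelets and vessel walls, was at 96.9 and 2.12 CPM in non_mCherry and at 89.3 and 1.32 CPM in control. Thinned to 5000 UMIs, 73.1% (64.2 to 80.8) of non_mCherry members and 76.8% (71.8 to 81.2) of control members kept an Itga2b UMI. The same share was 3.87% and 3.85% in the cells with at least 3 B lineage UMIs, taken as a measure of background. Without thinning, 95.9% and 96.7% of members had an Itga2b UMI. The B lineage cells had a median of 7192 UMIs in non_mCherry and 20245 in control. In control 91.4% of them also kept a UMI of the neutrophil enzyme Mpo after thinning, so there that label covers mostly cells that also held Mpo RNA. The share with Mpo was 48.2% in non_mCherry. Among all cells other than members it was 55.6% in non_mCherry and 73.9% in control, and among members 23.5% and 35.5%. An Mpo UMI was thus common in both libraries and by itself does not mark a granulocyte progenitor.

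Among genes with at least 20 CPM in members or other cells, 186 of 5880 (3.16%) were at least 2-fold higher in members of non_mCherry and 204 of 5945 (3.43%) in control. Another 278 (4.73%) were at least 2-fold lower in members of non_mCherry and 202 (3.4%) in control. A gene that reached 20 CPM only in members had to be higher there, so the counts per list given further on describe the genes measured and no more. Ratios are log2 of (CPM + 5) over (CPM + 5), which shortens the folds of low genes, and their medians over all genes tested were 0.03 in non_mCherry and 0.05 in control. Of the 5621 genes tested in both libraries, 147 were higher in both, which is 85.0% of the non_mCherry and 80.3% of the control calls. Lower in both were 152 genes, 68.2% of the non_mCherry and 83.5% of the control calls. The 20 genes ranked highest were taken from outside the rule.

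Slc14a1, a urea transporter of red cells, was at 241 CPM in members and 18.01 in other cells of non_mCherry, and at 227 and 17.1 CPM in control. Timp3, an inhibitor of metalloproteinases, was at 57.7 and 1.89 CPM in non_mCherry and 68.1 and 2.89 CPM in control. Rap1b, the small GTPase that switches platelet integrins on, reached 874 and 115 CPM in non_mCherry and 828 and 120 CPM in control. Serpina3g, a protease inhibitor, was at 557 and 103 CPM in non_mCherry and 360 and 66.8 CPM in control. Others of these genes were Ehd3, F2rl2, Plek, Cd9, Tuba8, Nrgn, Itgb3, Gp5, Rbpms2, Ache, Pde10a, Gucy1a3, Tbxas1 and Gucy1b3, all at least 4-fold higher in members of both libraries on the same scale.

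**Figure D2:**
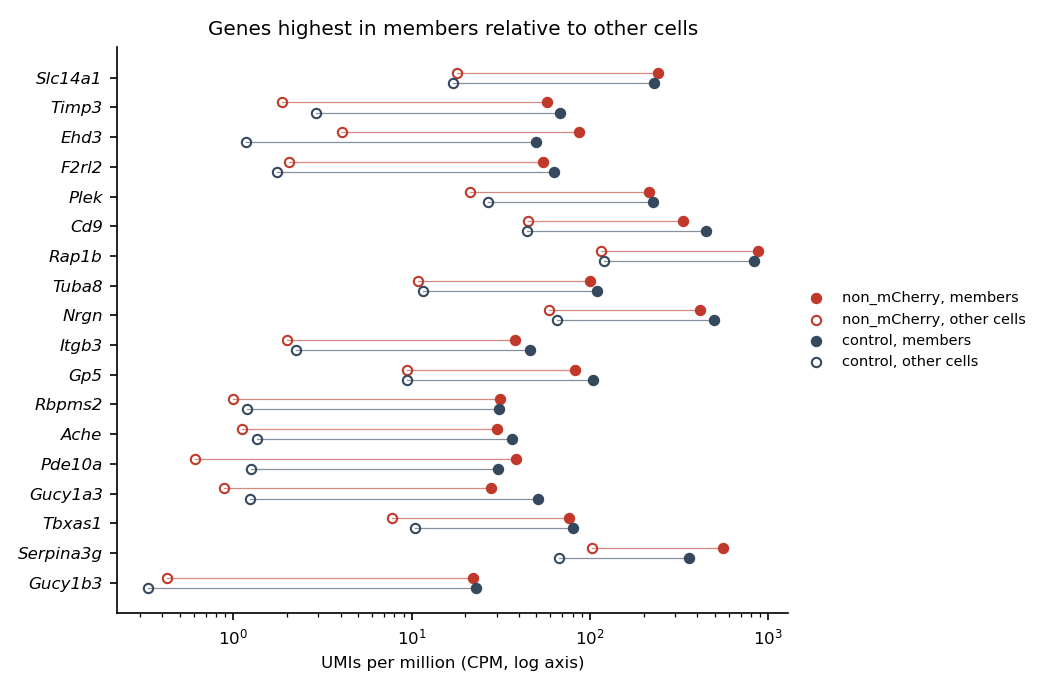
CPM (log axis) of genes highest in members relative to other cells, with members as filled points and other cells as open points, non_mCherry in red and control in dark blue. Slc14a1 is at 241 CPM in members and 18.01 CPM in other cells of non_mCherry, and at 227 and 17.1 CPM in control.

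Of 15 receptors through which platelets sense agonists, 7 reached 20 CPM and were at least 2-fold higher in members of both libraries. Most of these 7 passed the minimum only through the members, so their direction was largely fixed by the filter, and 8 were not measured, among them P2ry12, Adra2a and Avpr1a with at most 1 UMI in the members of either library. F2rl2, the protease-activated receptor that helps thrombin act on mouse platelets, was at 54.9 CPM in members and 2.04 in other cells of non_mCherry, and at 62.7 and 1.75 CPM in control. P2ry1, an ADP receptor, was at 34.2 and 5.80 CPM in non_mCherry and 35.3 and 5.84 CPM in control. Gucy1b3, the beta chain of the nitric oxide receptor guanylate cyclase, was at 22.1 and 0.426 CPM in non_mCherry and 22.9 and 0.331 CPM in control. F2r, annotated as the thrombin receptor PAR1, was at 148 and 26.7 CPM in non_mCherry and 165 and 21.96 CPM in control.

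Adhesion receptors other than the rule genes were mixed. Of 11 measured genes, 6 were at least 2-fold higher in members of each library and 1 lower, with median log2 ratios of 1.36 in non_mCherry and 1.29 in control. Itgb3, the beta chain that pairs with Itga2b, was at 37.8 CPM in members and 2.00 in other cells of non_mCherry, and at 46.1 and 2.23 CPM in control. Gp5, a further chain of the von Willebrand factor receptor, was at 82.7 and 9.47 CPM in non_mCherry and 103 and 9.46 CPM in control. Fcer1g, the signalling chain that serves the collagen receptor but also Fc receptors of myeloid cells, was lower in members, at 54.9 and 178 CPM in non_mCherry and 71.6 and 236 CPM in control. Gp6, the collagen receptor itself, had 0 UMIs in non_mCherry members, where 3 UMIs would be 2.14 CPM, and 1 UMI in control members.

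Alpha granule cargo and the genes that build granules differed in how far they stood out. Of the cargo genes, 4 of 6 measured were higher and 1 lower in non_mCherry, and 3 of 7 were higher in control, with median log2 ratios of 1.51 and 0.95. Angpt1, a vascular growth factor, was at 199.6 CPM in members and 43.0 in other cells of non_mCherry, and at 202 and 52.0 CPM in control. Thbs1, thrombospondin 1, was at 34.2 and 0.931 CPM in non_mCherry and 22.7 and 11.9 CPM in control, where other cells held more of it. Of the genes for granule biogenesis and release, 0 of 12 passed 2-fold in non_mCherry and 1 of 13 in control, with medians of 0.49 and 0.36. The 1 gene was Slc35d3, a transporter needed for dense granules, at 22.7 and 1.29 CPM in control. It was at 17.1 and 0.404 CPM in non_mCherry, under the 20 CPM needed to be counted.

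Some late platelet genes were low or at 0. Ppbp, a second chemokine of alpha granules, was at 4.99 CPM in non_mCherry members and 7.79 CPM in control members, with a UMI in 6 and 29 of them. Clec1b, the podoplanin receptor CLEC-2, was at 12.1 and 11.9 CPM. Tubb1, the beta tubulin of the platelet marginal band, had 0 UMIs in the members of both libraries. A count of 3 UMIs would be 2.14 CPM in non_mCherry and 0.649 CPM in control. Myl9, a myosin light chain of megakaryocytes, also had 0 UMIs in both. Members were therefore platelet-gene-positive cells in which Tubb1 and Myl9 were not detected at this depth. Ppbp and Clec1b were low but more frequent than in other cells. A Ppbp UMI was found in 4.88% of members and 0.0252% of other cells in non_mCherry, and in 8.66% and 0.0458% in control. For Clec1b the shares were 9.76% and 0.126% in non_mCherry and 13.1% and 0.435% in control.

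In the cytoskeleton list 9 of 23 measured genes were higher and 2 lower in non_mCherry members, and 8 of 21 higher and 0 lower in control members. Plek, pleckstrin, was at 215 CPM in members and 21.3 in other cells of non_mCherry, and at 226 and 26.8 CPM in control. Tuba8, an alpha tubulin of platelets, was at 100.5 and 10.9 CPM in non_mCherry and 109 and 11.5 CPM in control. Of the signalling genes 10 of 26 were higher in members of each library and 0 lower, led after Rap1b by Gng11, a G protein gamma chain, at 76.3 and 8.99 CPM in non_mCherry and 93.2 and 15.6 CPM in control. Of 4 measured genes of arachidonate metabolism 3 were higher in both libraries. Ptgs1, the cyclooxygenase that aspirin blocks in platelets, was at 64.1 and 4.76 CPM in non_mCherry and 63.2 and 9.15 CPM in control.

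Transcription factors of the lineage were higher less uniformly. Of the measured factors 6 of 23 were at least 2-fold higher and 3 lower in non_mCherry members, and 7 of 22 higher and 0 lower in control members, with medians of 0.53 and 0.64. Fli1, the ETS factor that favours megakaryocytes over red cells, was at 209 CPM in members and 46.6 in other cells of non_mCherry, and at 244 and 52.6 CPM in control. Gata1, the GATA factor shared with the red cell lineage, was at 46.3 and 35.6 CPM in non_mCherry and 47.6 and 30.5 CPM in control, short of 2-fold. Its cofactor Zfpm1 was at 423 and 117 CPM in non_mCherry and 374 and 86.9 CPM in control. Meis1, a homeobox factor, was at 160.4 and 31.5 CPM in non_mCherry and 190.2 and 41.2 CPM in control. Myb, which keeps progenitors dividing and restrains the megakaryocyte fate, was lower in members, at 143 and 299 CPM in non_mCherry and 166 and 302 CPM in control, past 2-fold in non_mCherry only.

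Runx1, the locus of the knock-in, was at 191 CPM (169 to 215) in non_mCherry members and 229 CPM (216 to 244) in control members. In other cells it was at 147 and 145 CPM. Runx1t1, the fusion partner that adult blood cells hardly use, had 2 UMIs in non_mCherry members and 5 in control members. The files list neither the fusion nor mCherry as a gene, so the label of the non_mCherry fraction was not checked by these counts.

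Of 13 measured genes of thrombopoietin signalling 3 were higher in non_mCherry members and 2 in control members, and Bcl2l1, the survival factor of platelets, was at 32.1 and 11.5 CPM in non_mCherry and 29.6 and 7.88 CPM in control. Stem cell regulators were higher for 8 of 14 measured genes in non_mCherry members and 6 of 14 in control members, and lower for 2 in each. Mycn, a proto-oncogene, was at 57.7 and 3.28 CPM in non_mCherry and 41.8 and 4.62 CPM in control, and Cd34, a surface marker of early progenitors, was lower at 22.8 and 114 CPM in non_mCherry and 53.7 and 165 CPM in control.

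The genes lowest in members relative to other cells belonged to other lineages. They were Prg2 of eosinophils, Prss34 of basophils, Jchain of antibody-secreting and B lineage cells, Car1 of the red cell lineage, Mt2, Ly6c2, and the neutrophil granule genes Prtn3, Elane, Ctsg and Mpo. Car1, carbonic anhydrase 1, was at 58.4 CPM in members and 532 in other cells of non_mCherry, and at 24.9 and 482 CPM in control. A single non_mCherry member held 47 of the 82 Car1 UMIs of the members there. Elane, neutrophil elastase, was at 188 and 1427 CPM in non_mCherry and 269 and 2963 CPM in control. Of 16 measured erythroid genes 8 were lower in non_mCherry members and 6 in control members, and 0 higher. Basophil and mast cell markers were lower for 7 of 7 in non_mCherry and 6 of 6 in control. T and NK markers summed to 415 CPM in members and 371 in other cells of non_mCherry, and to 408 and 410.5 CPM in control. Only 1 of the 9 T and NK genes counted reached 20 CPM, so these sums were mostly that gene. Cd3e, Tcf7, Il2rb and Klrd1 were at 0 UMIs in the members of both.

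Some members also carried RNA of other lineages. At least 10 UMIs over Elane, Mpo and Prtn3 were found in 4 non_mCherry and 40 control members, which held 79.2% and 83.4% of all UMIs of these genes among members. At least 3 UMIs over the 7 B lineage genes were found in 13 non_mCherry and 6 control members. Without either kind of member the log2 ratio between non_mCherry and control members was 0.14 for Mcpt8, a basophil protease, in place of -1.19, -0.57 for Irf8 in place of -1.28, and 1.89 for Vpreb1 in place of 3.24. The shares of members without them were 1.33% in non_mCherry and 3.22% in control.

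The most similar cells were few. Only 5 cells of non_mCherry and 8 of control met the platelet rule with at least 2 Klf1 UMIs. Summed over such cells, Car1 was at 0 UMIs in non_mCherry and at 1089 CPM in control. Cells with at least 2 Klf1 UMIs and no Pf4 UMI were more numerous, 896 in non_mCherry and 1109 in control. Gata1 was lower in members than in these Klf1 cells, at 46.3 and 103 CPM in non_mCherry and 47.6 and 92.0 CPM in control, and Zfpm1 was higher, at 423 and 212 CPM in non_mCherry and 374 and 209 CPM in control. Gfi1b, a repressor that both lineages need, was at 81.3 and 85.1 CPM in non_mCherry and 80.3 and 77.5 CPM in control. Slamf1, a surface marker of stem cells, was at 29.9 and 10.9 CPM in non_mCherry and 13.4 and 6.70 CPM in control.

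Members were split into tertiles by the Pf4 share of their UMIs, 41 cells per tertile in non_mCherry and 112, 112 and 111 in control, to see what moved with Pf4. Rap1b was at 671, 885 and 1076 CPM in the lowest, middle and highest tertile of non_mCherry and at 502, 877 and 1129 CPM in control. Selp, the P-selectin of alpha granules, was at 15.9, 26.3 and 83.1 CPM in non_mCherry and 15.7, 25.8 and 46.6 CPM in control. Both genes were higher in each next tertile of both libraries. Vwf, part of the rule, was at 75.5, 90.9 and 125 CPM in non_mCherry and 34.96, 84.4 and 151 CPM in control. Serpine2, a protease inhibitor, was at 28.3, 55.8 and 155 CPM in control, and in non_mCherry its middle tertile was lowest, at 27.8, 21.5 and 81.0 CPM. Clec1b was at 1.99, 2.39 and 31.1 CPM in non_mCherry and 1.81, 10.0 and 24.3 CPM in control.

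Summed over the list, surface markers of progenitors showed no order with Pf4 in non_mCherry, at 373, 364 and 378 CPM from the lowest to the highest tertile, and were at 459.9, 387 and 258 CPM in control. Stem cell regulators were at 2442, 2563 and 2508 CPM in non_mCherry and 2416, 2229.6 and 2310.4 CPM in control, with no order in either. Single genes were lower in each next tertile. Myb was at 181, 134 and 110.1 CPM from the lowest to the highest tertile of non_mCherry and at 206, 175 and 116 CPM in control. Kit, the receptor used in the sort, was at 37.7, 33.5 and 24.9 CPM in non_mCherry and 79.6, 58.7 and 48.6 CPM in control. Cd34 was at 89.2, 50.1 and 19.2 CPM in control but at 23.8, 11.97 and 31.1 CPM in non_mCherry, with no such order. In the highest tertile of non_mCherry, single cells held 8 and 4 of the 32 Cd34 UMIs of all members there. The Cd34 value of that tertile thus rests mostly on these cells. Elane was at 473, 31.1 and 27.0 CPM in non_mCherry and 452, 289 and 56.9 CPM in control. In non_mCherry 4 members held 79.2% of the summed UMIs of Elane, Mpo and Prtn3, so the Elane values there may rest on few cells. The whole list of neutrophil markers summed to 2276, 268 and 5432 CPM over the tertiles of non_mCherry, where a single member of high Pf4 held most of several of them, and to 2643, 1926 and 523 CPM in control. Runx1 was lowest in the tertile with most Pf4 in non_mCherry, at 210.5, 229.7 and 137.0 CPM, and was at 228.4, 238.9 and 221.7 CPM in control. Median UMIs per cell were 11194, 9248 and 10604 in the tertiles of non_mCherry and 13586, 11363 and 14056 in control, with no order that followed Pf4.

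**Figure D3:**
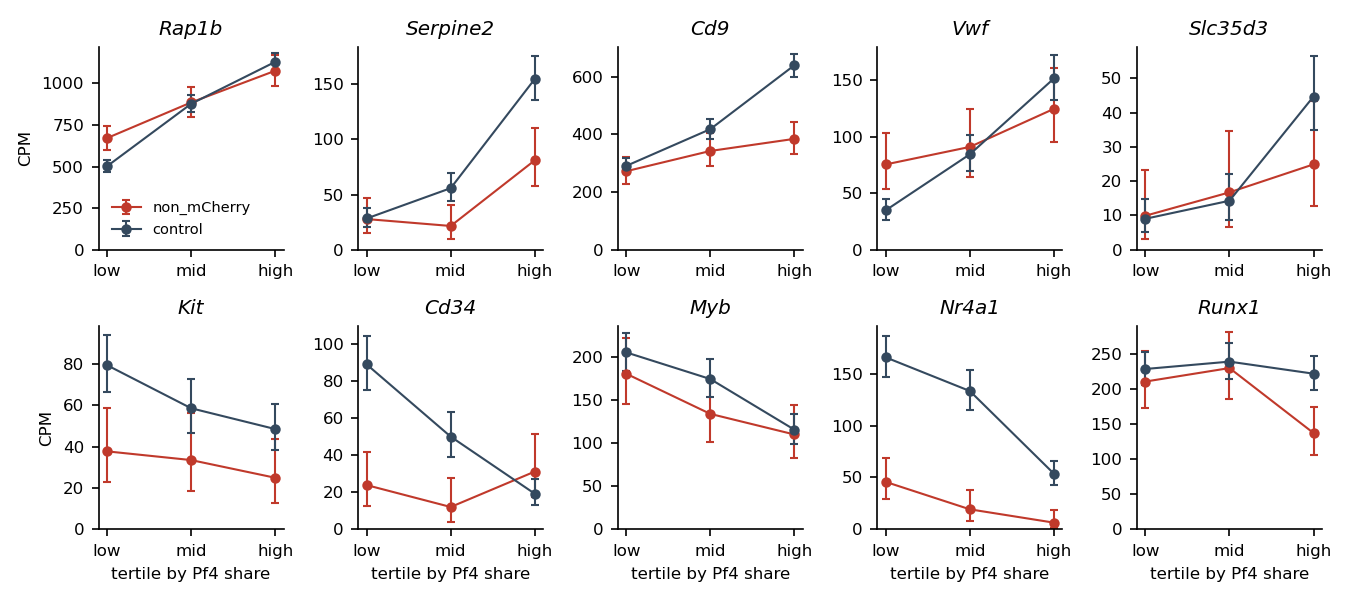
CPM (linear axes from 0) of 10 genes in members split into tertiles by Pf4 share, non_mCherry in red and control in dark blue, with exact 95% Poisson intervals for counting error. Rap1b and Vwf are higher in each next tertile of both libraries, and Myb and Kit are lower. Cd34 is lower in each next tertile of control, from 89.2 to 19.2 CPM, while its non_mCherry values rest on few UMIs.

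Members with and without Vwf were compared after thinning every cell to 5000 UMIs, which kept 119 non_mCherry and 327 control members and left out 4 and 8. A Vwf UMI was kept by 41 non_mCherry members, 34.5% (26.0 to 43.7), and by 102 control members, 31.2% (26.2 to 36.5), against 0.546% and 0.00% of the B lineage cells. Without thinning the shares were 60.2% and 54.0%. Pf4 was at 3580 CPM in members with Vwf and 2028 CPM in those without it in non_mCherry, and at 4812 and 2773 CPM in control. Kit was lower in members with Vwf, at 19.5 and 48.7 CPM in non_mCherry, from 4 and 19 UMIs, and at 51.0 and 67.6 CPM in control. The Kit values of non_mCherry thus rest on few UMIs.

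Between the libraries, non_mCherry members were at least 1.5-fold higher than control members for 70 of 5824 genes (1.2%) with at least 20 CPM in either, and lower for 153 (2.63%). The counting interval of the fold excluded 1 for each of these genes, also where a single cell held most of the UMIs, so it adds little to the size limit. Without the top cell of each gene 50 of the 70 higher genes still passed. At 2-fold 31 genes (0.532%) were higher and 16 (0.275%) lower. The median log2 ratio was -0.05. In the other cells of the same libraries 131 of 5623 genes (2.33%) were at least 1.5-fold higher in non_mCherry and 52 (0.925%) lower. The balance of directions in members depended on the setting, with 43 genes higher and 31 lower at a pseudocount of 20 CPM and 31 and 32 at a minimum of 50 CPM.

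Of all 5824 genes tested between the libraries, 1.2% were at least 1.5-fold higher and 2.63% lower in non_mCherry members. The counts of the platelet lists, and of every other list compared between the libraries, are to be read beside these shares. The 8 measured genes of the rule had log2 ratios of -0.48 to 0.22, the lowest being Pf4, but members of both libraries were chosen by the same limits on these genes. Of the genes that the rule did not use, those past 1.5-fold were 0 of 12 adhesion receptors (median -0.26), 0 of 26 signalling genes (median 0.05), 0 of 13 granule biogenesis genes (median -0.02) and 0 of 4 arachidonate genes (median -0.05). They were 2 of 7 agonist receptors, 2 of 6 cargo genes, 1 of 21 cytoskeleton genes (Tpm4, at 15.7 and 26.8 CPM), 1 of 22 transcription factors (Lyl1) and 2 of 14 genes of thrombopoietin signalling, Socs2 among them. Ptger3, a prostaglandin E2 receptor that primes platelets, was higher at 63.4 CPM (50.9 to 78.1) in non_mCherry members and 38.9 CPM (33.5 to 45.1) in control members. Gucy1a3, the alpha chain of guanylate cyclase, was lower at 27.8 CPM (19.8 to 38.0) and 51.3 CPM (45.0 to 58.2), while its partner Gucy1b3 was at 22.1 and 22.9 CPM. Mmrn1, multimerin 1 of alpha granules, was lower at 17.8 CPM (11.5 to 26.3) and 47.6 CPM (41.5 to 54.3), and Serpine2 at 44.2 CPM (33.9 to 56.6) and 79.4 CPM (71.5 to 88.0). In other cells Mmrn1 was at 1.95 and 1.74 CPM.

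**Figure D4:**
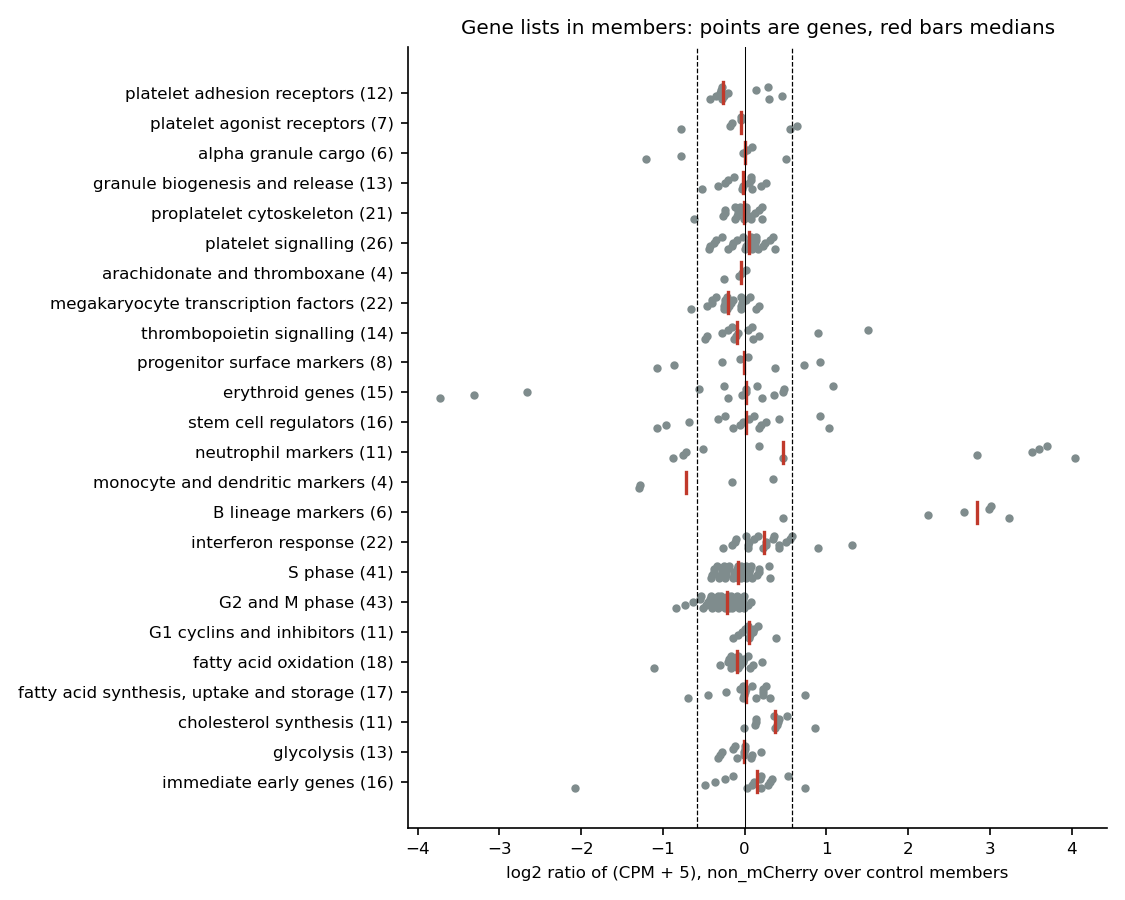
Log2 ratio of (CPM + 5) between non_mCherry and control members for each measured gene (points) of lists with at least 4 measured genes (number in brackets), with the median of each list as a red bar and dashed lines at 1.5-fold. No gene of the platelet signalling or platelet adhesion receptor lists passes a dashed line. The B lineage list has a median of 2.84, and the erythroid and neutrophil lists reach -3.73 and 4.04.

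Of 8 measured surface markers of progenitors 2 were higher, 2 lower and 4 within 1.5-fold in non_mCherry members, with a median of -0.01. Of 16 stem cell regulators 2 were higher, 3 lower and 11 within 1.5-fold, with a median of 0.01. Over all genes tested 1.2% were higher and 2.63% lower. Cd34 was at 22.8 CPM (15.6 to 32.2) in non_mCherry members and 53.7 CPM (47.2 to 60.8) in control members, a log2 ratio of -1.08, against -0.52 in other cells. Thinned to 5000 UMIs, 5.88% (2.40 to 11.7) of non_mCherry and 18.3% (14.3 to 23.0) of control members had a Cd34 UMI, against 22.3% and 49.9% of the B lineage cells. With so many of them holding Cd34, the B lineage cells are no measure of background for this gene. Kit was at 32.1 CPM (23.4 to 42.9) and 62.7 CPM (55.7 to 70.4), a log2 ratio of -0.87, against -0.21 in other cells. Hlf, a factor of stem cells, was at 11.4 and 27.0 CPM, and Lyl1, a relative of the blood stem cell factor Tal1, at 22.8 and 38.7 CPM. Slamf1 and Cd48 were higher, Slamf1 at 29.9 CPM (21.6 to 40.5) in non_mCherry members and 13.4 CPM (10.3 to 17.2) in control members, and Cd48, a marker that stem cells lack, at 130.4 CPM (112 to 151) and 77.0 CPM (69.2 to 85.4). A Slamf1 UMI was kept after thinning by 18.5% of non_mCherry and 5.81% of control members, against 1.49% and 0.428% of the B lineage cells, and without thinning it was found in 27.6% and 16.7% of members.

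Nr4a1 was the gene furthest down that was spread over many members. It is an orphan nuclear receptor switched on within minutes by many stimuli, and it lies on GRCm38 chromosome 15 from 101254269 to 101274795 on the plus strand. It was at 24.2 CPM (16.8 to 33.9) in non_mCherry members, with 34 UMIs in 22 cells, and at 118 CPM (109 to 129) in control members, with 547 UMIs in 158 cells, a log2 ratio of -2.08. In other cells the ratio was -1.01, from 33.5 and 72.6 CPM. Of the 16 measured immediate early genes Egr1 was higher, at 139 and 81.3 CPM, and 14 did not pass 1.5-fold, with a median of 0.15. Nr4a1 was lower in non_mCherry than in control in each tertile by Pf4, at 45.7, 19.1 and 6.23 CPM in non_mCherry and 166, 134 and 53.7 CPM in control.

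Erdr1, Bex1 and Banp were lower in non_mCherry members too. Bex1 was at 4.99 CPM (2.01 to 10.3) in non_mCherry members and 20.8 CPM (16.8 to 25.4) in control members, Erdr1 at 73.4 and 209.6 CPM, and Banp at 15.0 and 38.3 CPM. The largest share of UMIs of any of these genes in a single cell of either library was 14.3%, for the 7 Bex1 UMIs in non_mCherry. Erdr1 was lower by about the same amount in other cells, with a log2 ratio of -1.45 in members and -1.36 in other cells.

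Higher and spread over members were Gm15915, Wdfy1, Clca3a1, Igtp, Gadd45g, Cd69, Nfkbia and Ehd3. Gm15915, an unnamed transcript, was at 170.3 CPM (149 to 193) in non_mCherry members and 12.5 CPM (9.53 to 16.2) in control members, a 13.6-fold (10.2 to 18.4) difference, with a UMI in 65 of 123 and 38 of 335 cells. In other cells it was at 114 and 37.8 CPM. Ehd3, a membrane trafficking protein and 1 of the 20 genes highest in members, was at 87.0 and 49.5 CPM in members and 4.04 and 1.17 CPM in other cells. Cd69, an early activation marker, was at 207 and 109 CPM, and Nfkbia, the inhibitor of NF-kB that NF-kB itself switches on, at 175 and 97.8 CPM. Rpl6l, Gm9493, Rpl9-ps6 and other ribosomal genes and pseudogenes were also among the genes that were higher, but they share near-identical sequence with other ribosomal genes, so their split of reads is uncertain.

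Interferon genes were of interest because poly(I:C) acts through interferon. Of 22 measured genes 2 passed 1.5-fold, both higher in non_mCherry members, beside 1.2% of all genes tested. The median log2 ratio of the list was 0.24. Igtp, an interferon-induced GTPase, was at 23.5 CPM (16.2 to 33.0) in non_mCherry members and 6.49 CPM (4.38 to 9.27) in control members. H2-K1, a class I antigen-presenting molecule, was at 1234 and 828 CPM, a log2 ratio of 0.57, just short of 1.5-fold. The same genes were apart in the other cells, with log2 ratios of 0.86 for Igtp and 0.64 for H2-K1. Socs2, a feedback inhibitor of cytokine receptors, was at 32.8 CPM (24.0 to 43.7) in non_mCherry members and 8.22 CPM (5.82 to 11.3) in control members. It was further apart in other cells, at 55.7 and 3.43 CPM, and was at 144 CPM in the B lineage cells of non_mCherry, whose RNA differed between the libraries.

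Lipid metabolism was listed because the study concerns fatty acids. Of 18 measured genes of fatty acid oxidation 1 passed 1.5-fold, Cpt1a, with a list median of -0.10. Over all 5824 genes tested 1.2% were higher and 2.63% lower by that much, so such small counts are no result about these lists. Cpt1a, the carrier that admits long-chain fatty acids to the mitochondrion, lies on chromosome 19 from 3322334 to 3385733 and was at 8.55 CPM (4.42 to 14.9) in non_mCherry members, from 12 UMIs in 12 cells. In control members it was at 24.2 CPM (19.95 to 29.2), from 112 UMIs in 90 cells. In other cells it was at 21.8 and 26.1 CPM. Of 17 genes of fatty acid synthesis, uptake and storage, Srebf1 was higher at 27.8 and 14.7 CPM and Hacd2 lower at 18.5 and 32.9 CPM, with a median of 0.02. Of 11 genes of cholesterol synthesis only Idi1 passed, at 57.0 CPM (45.2 to 71.0) and 29.2 CPM (24.5 to 34.6), while the list's median was 0.37 and its lowest value -0.01. Against other cells of their own library 0 genes of these 3 lists passed 2-fold in members of either library.

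Of 43 genes of the G2 and M phases 3 were at least 1.5-fold lower in non_mCherry members, beside 2.63% of all genes tested. In this list 0 were higher and the median was -0.22. Kif23, a kinesin of cell division, was the lowest, at 11.4 and 24.4 CPM. Of 41 S phase genes 0 passed in either direction, with a median of -0.08, and of 11 G1 cyclins and inhibitors 0 passed. Ckap2l, a spindle protein, was the 1 gene of the G2 and M list at least 2-fold higher in members than in other cells, at 110 and 29.2 CPM in non_mCherry and 103 and 26.4 CPM in control. Members of higher depth weigh more in these sums, and the libraries differed in depth per member.

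The largest differences between the libraries by rank rested on few cells. The 12 genes furthest up were Ngp, S100a8, Camp, S100a9, Gm15915, Vpreb1, Lcn2, Vpreb3, Igll1, Chil3, Ltf and Cd79a. Ngp, a neutrophil granule protein, was at 281 CPM in non_mCherry members and 12.3 CPM in control members, but 99.2% of its UMIs in non_mCherry lay in 1 cell. That cell, with 20345 UMIs, 68 of them Pf4, and a doublet score of 0.0795, held 98.1% of the UMIs of the 7 neutrophil genes of this group, which made up 13.03% of its own UMIs. Without the cell holding most UMIs of each gene, Ngp was at 2.17 and 10.6 CPM and all 7 were lower in non_mCherry members. The B lineage genes Vpreb1, Vpreb3, Igll1 and Cd79a were less concentrated, with 24.3% to 33.3% of their UMIs in 1 cell. Vpreb1, part of the surrogate light chain, was at 60.6 CPM in non_mCherry members and 1.95 CPM in control members, and at 407 and 8.04 CPM in other cells, so it differed more between the other cells of the libraries than between members.

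Among the 12 genes furthest down were Hbb-bs, Hba-a1, Hba-a2, Nr4a1, Erdr1, Bex1, Ly6c2, Irf8, Mmrn1, Emb and Mcpt8. Hbb-bs, an adult beta globin, was at 12.8 CPM in non_mCherry members and 231 CPM in control members, but 1 control cell held 89.7% of its UMIs there. That cell had 8328 UMIs, 32 of them Pf4, and a doublet score of 0.0744, and 16.98% of its UMIs came from the 3 globin genes, whose near-identical copies share reads. Without it Hbb-bs was at 23.8 CPM in control, and its log2 ratio without the top cell of each library was -0.80. Irf8, Ly6c2 and Emb, genes of granulocyte and monocyte progenitors, were at 14.3, 20.7 and 17.8 CPM in non_mCherry members and 41.8, 57.8 and 47.4 CPM in control members, beside the 4 and 40 members with at least 10 UMIs of Elane, Mpo and Prtn3. The direction of the first pair did not hold, with log2 ratios of 0.16 for Ly6c2 without cells of a doublet score of at least 0.25 and 0.046 for Irf8 after thinning. Over all genes that passed 1.5-fold, 50 of the 70 that were higher and 152 of the 153 that were lower still passed without the top cell of each gene. Spread over many cells among the genes that were lower were Mmrn1, Kit, Cpt1a and Banp, and Mmrn1 had a UMI in 21 of 123 and 148 of 335 members.

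**Figure D5:**
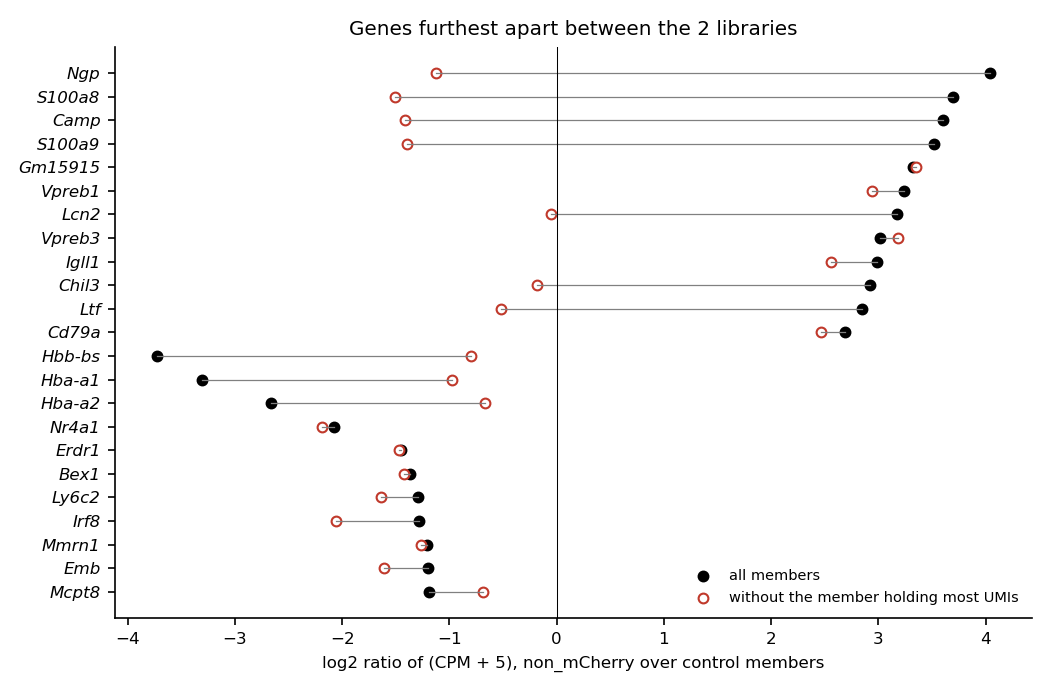
Log2 ratio of (CPM + 5) between non_mCherry and control members for the genes furthest up and furthest down, over all members (filled) and without the member holding most UMIs of that gene in each library (open). Ngp moves from 4.04 to -1.12 and Hbb-bs from -3.73 to -0.80, while Nr4a1 is at -2.08 and -2.18.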

How the data were processed

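Single-cell RNA was measured in 3 libraries, and the non_mCherry and control libraries were described, with mCherry used for a count only. The authors deposited whole-number UMI counts per gene and barcode, made with Cell Ranger 6.1.2 on mm10 per the submitters' processing notes, while the matrix headers give software version 3.1.0. Of 27998 listed genes 27722 were found in GENCODE M21 (GRCm38), which gave gene coordinates. The libraries held 9751 (non_mCherry), 11323 (mCherry) and 9782 (control) barcodes, with 92776556, 97404871 and 150702749 UMIs. The members and the gene lists were chosen with earlier results of these data known.

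UMIs were summed per library over members and over other cells, scaled to CPM and compared as log2 of (CPM + 5) ratios, for genes that reached 20 CPM in one set or the other. Intervals are exact at 95% and cover counting error only, since cells are not replicates. Genes were named by the 20 highest and 10 lowest ratios of members over other cells in both libraries, by the 12 highest and 12 lowest ratios between the libraries, and by the extremes of each list. Scrublet in scanpy 1.11.5 scored doublets, which stayed in. Depth was matched by thinning cells to 5000 UMIs and leaving out shallower cells. The interval and call steps were tested on simulated Poisson counts without variation between cells. That check does not cover genes whose UMIs lie in few cells. Python 3.11.15, numpy 2.4.6, scipy 1.17.1, pandas 2.3.3 and matplotlib 3.10.9 were used. Alternatives changed the thresholds of the rule, the cell filter, doublets, depth, pseudocount, minimum level, scaling and way of averaging, and left out single members or members with RNA of other lineages. Some named genes are not reported here.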

Additional observations from a re-analysis of the deposited data

Results flagged for a closer look

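Neutrophil genes, 5 in number, stood on opposite sides of 0 in the 2 libraries when members were set against other cells, and the difference was not tested. The log2 ratios of members over other cells were 1.55 in non_mCherry and -2.92 in control for Camp, an antimicrobial peptide, and 1.58 and -2.31 for Chil3, a chitinase-like protein. For Lcn2, an iron-binding granule protein, they were 1.07 in non_mCherry and -2.24 in control, for Ltf, lactoferrin, 1.47 and -2.16, and for Ngp 1.51 and -3.15. A single non_mCherry member held 98.1% of the non_mCherry members' UMIs of these genes together with S100a8 and S100a9, so the positive values rest on that cell.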

How the results depend on the processing

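No paired analysis was possible because each group had 1 library and the libraries shared only a replicate number. The share of members was lower in non_mCherry than in control under every rule, filter, depth and denominator tried. Values that moved by more than counting error were 1.26% in non_mCherry over all deposited barcodes, 2.52% in control with a ratio of 0.531 after thinning, 3.25% in control with at least 5 Pf4 UMIs, 3.298% in control with 4 of 7 platelet genes, 2.21% in non_mCherry with a ratio of 0.577 without B lineage cells, and 3.22% in control without members holding RNA of other lineages. The last alternative, the one without the top cell of each gene and the one requiring a counting interval beyond 1 were chosen after seeing the data.

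Counts of genes depended on the pseudocount and the minimum level. Higher and lower in members than in other cells at a pseudocount of 20 CPM were 116 and 159 genes in non_mCherry and 102 and 124 in control, and between the libraries 43 and 31. A pseudocount of 1 CPM gave 233 genes lower in non_mCherry members. Without a minimum, 474 genes were lower in non_mCherry members and 307 in control members than in other cells, and 231 were higher and 485 lower between the libraries. A minimum of 50 CPM gave 115 and 136 genes in non_mCherry, 120 and 104 in control, and 31 and 32 between the libraries. Averaging per-cell CPM gave 112 genes higher in non_mCherry members, and thinning, which left fewer UMIs per gene, gave 379 higher and 637 lower. Median-of-ratios scaling moved no count or named gene.

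Among single genes 10 values changed sign between non_mCherry and control members. Without the top cell of each gene the log2 ratios were -1.12 for Ngp, -1.51 for S100a8, -1.41 for Camp, -1.39 for S100a9, -0.055 for Lcn2, -0.19 for Chil3 and -0.52 for Ltf. Ly6c2 was at 0.16 without cells of a Scrublet score of at least 0.25, Irf8 at 0.046 after thinning and Mcpt8 at 0.14 without members holding RNA of other lineages, and the cause was not tested. With 1403063 member UMIs in non_mCherry, a gene at 0 could still reach 2.14 CPM there, so low genes could not be compared.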
